A study of Mus musculus with 400 samples.

Results

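Tac1/Calca cells were dorsal root ganglion neurons that carried high levels of both Calca, the gene of the peptide CGRP, and Tac1, the gene of substance P. They made up 86 of the 371 single cells kept, or 23.2%. A cell was a member when Calca was at least 2000 CPM and Tac1 at least 1000 CPM, where CPM scales the signal of a gene by the summed signal of its cell. The members were thus selected on the measured Calca and Tac1 values, and the levels of both genes are given below as a description. The cells came from cervical dorsal root ganglia of 6 naive mice aged 6 to 12 weeks. All of these mice carried Nav1.8-Cre and the R26CAG-floxStop-tdTomato reporter (strain label Nav1.8-Cre.Ai14), and no mouse was treated. Single tdTomato-positive cells were sorted into tubes, and each was sequenced by a molecule-counting method as its own library. Sequencing took 4 runs: mice Blue and Red went into run 1, mouse Control was run 2, run 3 held Control1 with Control2, and mouse Control6 was run 4. In this model the recombinase is driven by Scn10a, the gene of the sodium channel Nav1.8, so that neurons without a history of Scn10a expression are not labelled, and the sorted cells stand for that lineage and not for the whole ganglion. Each mouse was treated as 1 replicate.

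Peptidergic nociceptors are small sensory neurons that release CGRP and substance P from dense core granules, both in the spinal cord and at their endings in skin and viscera. The peptides dilate vessels, make them leaky and recruit immune cells, a process called neurogenic inflammation. Many of these neurons carry the heat and capsaicin channel TRPV1. CGRP is not limited to them: some itch neurons that carry Mrgpra3 and some lightly myelinated neurons express Calca with little Tac1. For that reason the members were set against 2 groups, the 285 other kept cells and, within these, the 53 other Calca cells, in which Calca was at least 2000 CPM and Tac1 below 1000 CPM.

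The gate left few cells near its edges. Calca reached a median of 10979 CPM in the members and Tac1 a median of 3802 CPM. The lowest Calca among members was 2455 CPM and the lowest Tac1 1233 CPM, while the highest Tac1 among the other Calca cells was 859 CPM. Only 3 members had Calca below 4000 CPM, and 9 had Tac1 below 2000 CPM. A further 7 cells had Tac1 of at least 1000 CPM with too little Calca, and their highest Calca was 1823 CPM. They were of unlike kinds: in 3 of them, all from mouse Blue, Calca was listed at 0, and 4 carried Adcyap1 at 284 CPM or more.

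**Figure D1:**
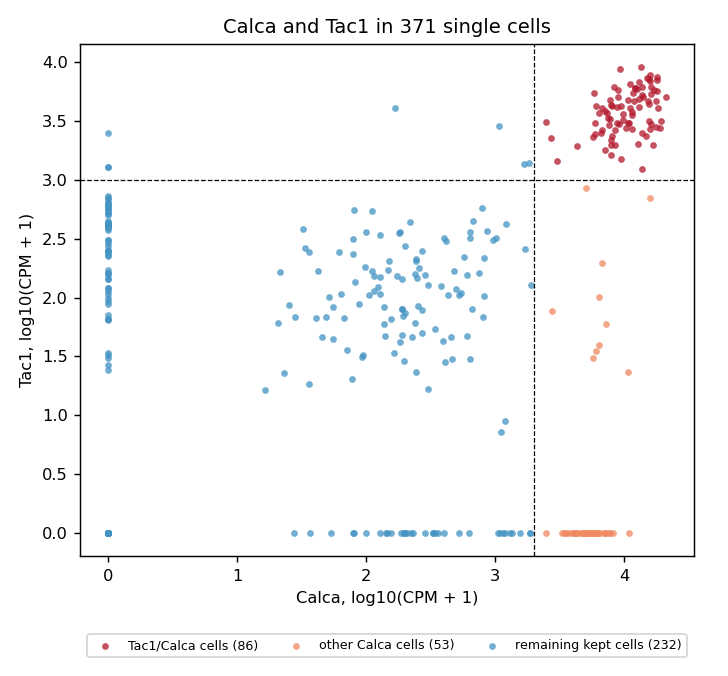
Calca (x axis) and Tac1 (y axis) in each of 371 kept cells, both as log10(CPM + 1); 1 point is 1 cell, and the dashed lines are the limits at 2000 CPM of Calca and 1000 CPM of Tac1. By the rule itself, the 86 Tac1/Calca cells lie at the upper right and the 53 other Calca cells below them. Their places in the plot are thus no check that the members are a separate group.

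The label of a peptidergic neuron was checked on genes that the rule did not use. Of the 86 members, 67 had counts of all 3 of Adcyap1, Gal and Gfra3, 18 had counts of 2 of them and 1 had a count of 1. Scn10a was detected in 86 of 86 members (100%, exact 95% interval 95.8% to 100%, which covers counting error only). Since Scn10a drove the reporter by which all cells were sorted, its detection was no check of the peptidergic name. Of the defining genes of other classes, Mrgprd, Mrgpra3, Sst, Nppb and Th were rare, while others were not rarer than in the other kept cells. At 100 CPM or more, Mrgprd was found in 0 of 86 members against 40% of the other kept cells, Mrgpra3 in 0 against 46, Sst in 0 against 43 and Nppb in 0 against 46. A count of 0 in 86 cells allows a share of up to 3.49% by the rough rule of 3 over the number of cells. That limit covers counting error only, pools cells over mice and is cruder than an exact interval. Th reached that level in 2 members, against 37 of the other kept cells. The neurofilament gene Nefh did so in 41 members (47.7%), against 134 (47.02%) of the other kept cells. Smr2 and S100b, listed with Nefh as markers of CGRP neurons that carry Nefh, were not rarer in members either. At that level Smr2 was found in 6 members and 0 other kept cells, and S100b in 13 members (15.1%) and 35 other kept cells (12.3%). Trpm8 was found in 1 member and 0 other kept cells. The files hold no measure of conduction, so that the word C-fibre in the usual name of these neurons was not checked.

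Depth and glial RNA differed between the sets and between mice. The median member had 19859 recovered counts, with a range of 6652 to 83353, and 5705 detected genes, against 35214 counts and 6946 genes in the other kept cells and 42504 counts and 7464 genes in the other Calca cells. The part of this gap in the results was not tested beyond the thinning to 5000 counts per cell given below. Markers of satellite glia, such as Apoe and Fabp7, summed to at least 500 CPM in 33 members (38.4%), against 95 of the other kept cells (33.3%) and 25 of the other Calca cells (47.2%). Their mean sum by mouse ran from 256 to 3226 CPM in members, against 463 to 2368 CPM in the other kept cells, and no marker of that list was at 0. All 4 members of Control and all 4 of Control2 lay above 500 CPM. Endothelial markers were at 0 in the members for 6 of 6 genes.

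The members did not make up the same part of every mouse. The 33 members of Blue were 26.2% of its kept cells (exact 95% interval 18.8% to 34.8%), and the 38 of Red were 29.7% (21.9% to 38.4%). Members were 4 of 50 in Control (8%, 2.22% to 19.2%). They were 3 of 19 in Control1 (15.8%, 3.38% to 39.6%), 4 of 23 in Control2 (17.4%, 4.95% to 38.8%) and 4 of 25 in Control6 (16%, 4.54% to 36.1%). The mean over mice was 18.8% (SD 7.86, n = 6). The share was highest in the 2 mice of run 1, which held 71 of the 86 members, and for the remaining mice, mouse and run cannot be told apart, except within run 3. Per mouse, the mean of Calca ran from 7368 CPM in Control2 to 12319 CPM in Blue, and that of Tac1 from 2583 CPM in Control2 to 4596 CPM in Red.

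The peptide genes Tac1, Calca, Adcyap1 and Gal marked the members, Tac1 and Calca through the gate itself. The high levels of Tac1 and Calca in every member were thus fixed by the rule. Adcyap1, which the rule did not use, was at 100 CPM or more in 83 of 86 members. Over the 86 members, Spearman's rho of Adcyap1 was 0.11 with Tac1 and −0.31 with Calca. The bases before the RefSeq start sites of the 4 genes were read as letters only. Each sequence holds 250 bases upstream of the start, read 5′ to 3′ on the strand of the gene from RefSeq on GRCm38.p6. Capitals mark TGACG or its reverse complement CGTCA, the first 5 bases of the cAMP response element TGACGTCA, to which CREB binds. The regions are chr6:7554811-7555060 (plus strand) for Tac1, chr7:114636358-114636607 (minus strand) for Calca, chr17:93198767-93199016 (plus strand) for Adcyap1 and chr19:3414545-3414794 (minus strand) for Gal.
Tac1: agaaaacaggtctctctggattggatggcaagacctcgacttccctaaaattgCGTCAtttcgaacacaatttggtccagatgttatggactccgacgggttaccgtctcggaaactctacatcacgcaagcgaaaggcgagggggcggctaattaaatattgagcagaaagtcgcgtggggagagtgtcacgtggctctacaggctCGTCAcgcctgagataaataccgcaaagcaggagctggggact
Calca: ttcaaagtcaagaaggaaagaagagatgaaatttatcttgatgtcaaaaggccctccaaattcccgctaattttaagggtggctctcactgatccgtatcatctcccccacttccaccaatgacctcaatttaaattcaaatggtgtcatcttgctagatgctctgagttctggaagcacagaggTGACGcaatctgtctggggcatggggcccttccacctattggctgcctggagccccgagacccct
Adcyap1: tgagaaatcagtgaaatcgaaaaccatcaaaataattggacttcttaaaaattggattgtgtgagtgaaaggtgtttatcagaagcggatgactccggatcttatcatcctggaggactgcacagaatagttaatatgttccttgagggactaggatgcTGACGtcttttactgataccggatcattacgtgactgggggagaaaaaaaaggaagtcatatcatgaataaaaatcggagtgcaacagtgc
Gal: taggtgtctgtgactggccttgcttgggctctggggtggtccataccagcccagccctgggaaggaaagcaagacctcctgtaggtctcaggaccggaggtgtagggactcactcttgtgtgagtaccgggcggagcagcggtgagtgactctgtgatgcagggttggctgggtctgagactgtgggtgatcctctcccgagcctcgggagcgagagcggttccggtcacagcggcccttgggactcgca
The Tac1 sequence held these letters at 197 and 43 bases before the start, the Calca sequence at 65 bases and the Adcyap1 sequence at 91 bases. No match was found in the 250 bases before Gal, and the full TGACGTCA in none of the 4. On either strand TGACG was present in 17.8% of 32851 mouse promoter windows of this length, and TGACGTCA in 1.55%. These matches describe letters and were not tested as binding sites.

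Against the other kept cells, Tac1/Calca cells were richer in the peptide genes Adcyap1, Gal and Cartpt, in the artemin receptor gene Gfra3 and the neurotrophin receptor gene Ngfr, in Trpv1, and in the neuropeptide Y receptor gene Npy1r. They were poorer in the peptide genes of the Sst and Nppb itch neurons, in Gfra2, Piezo2 and P2rx3, and in most called genes of G protein and protein kinase C signalling. In all, 1063 of 9215 genes tested (11.5%) differed, 469 higher (5.09%) and 594 lower (6.45%) in members, by limma with Benjamini-Hochberg adjustment over 6 mice. Values below are means of cells per mouse, in CPM, and overlap is judged on these means and not on single cells. Differences are on the scale of log2(CPM + 5), which makes the differences of weakly expressed genes smaller than their ratios. Calca and Tac1 were left out of the test, and genes that go along with them in single cells differ through the choice of the cells, so that every p is conditional on that choice. With scaling by TMM, the split was 374 higher and 786 lower, with the median of all genes at −0.19 in place of −0.08, and with cells thinned to 5000 counts 401 genes passed.

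Of the other peptides, Adcyap1 was carried by nearly all members, and Gal and Cartpt by a part of them. Adcyap1, on chromosome 17 from 93199017 to 93206537 (GRCm38), encodes PACAP, a peptide that dilates vessels and raises cAMP. Members of Blue and Red held 1585 and 1581 CPM, those of Control and Control1 819 and 817 CPM, and those of Control2 and Control6 1044 and 1533 CPM, against 10.96, 21.6, 42.1, 48.5, 17.03 and 24.2 CPM in the other kept cells of these mice. The lowest mean of the members lay above the highest mean of the other cells, although single cells overlapped, and the difference was 5.32 (SE 0.30, adjusted p = 8.75e-08, limma). Counts of Adcyap1 were found in 98.8% of members, against 16.8% of the other kept cells, and in 95.3% against 6.91% with every cell thinned to 5000 counts, for which 0 members and 10 other cells were too shallow.

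Gal, which encodes galanin, a peptide that acts on inhibitory and excitatory receptors of sensory neurons, stood on chromosome 19 from 3409915 to 3414544. It held 233, 255, 90.98, 100.5, 159 and 374 CPM in members of Blue, Red, Control, Control1, Control2 and Control6, against 0, 2.47, 6.36, 7.27, 8.49 and 1.80 CPM in the other kept cells. The lowest mouse of the members lay above the highest of the other cells, with a difference of 4.38 (SE 0.41, adjusted p = 8.33e-06, limma). Cartpt, the gene of the CART peptides, was higher by 3.41 (SE 0.45, adjusted p = 0.000166, limma), but with a wide spread over mice: the lowest, median and highest mouse of the members held 32.8, 183 and 827 CPM, against 2.68, 13.8 and 24.8 CPM. Calcb, the gene of the second CGRP, averaged 400.3 CPM (SD 117.5) in members and 341 CPM (SD 72.6) in the other kept cells, a difference of 0.19 (SE 0.20, adjusted p = 0.623, limma) that came to 0.45 (adjusted p = 0.044, limma) without Control2, the mouse with the lowest Calcb in members. Calcb also passed with means of log values, in which each cell enters on the log scale, at 1.22 (adjusted p = 0.00897, limma), and in run 1 alone, at 0.67 (adjusted p = 1.47e-12, limma). Sst, Nts and Nppb, peptide genes of itch neurons, were listed at 0 in all 86 members, against counts in 46, 56 and 47 of the 285 other kept cells. Of the 24 peptide genes listed, 8 were tested besides Calca and Tac1. Of these, 3 were higher, 3 were lower and 2 did not pass (75% called, against 11.5% of all genes).

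Genes that load, process and release peptides did not move one way. Of 25 tested, 5 were higher, 5 were lower and 15 did not pass (40% called, against 11.5% of all genes). Their median difference was 0.16, against −0.08 over all genes. The largest was Scg3, a granin that helps to form dense core granules, which was lower: its lowest, median and highest mouse held 205, 252 and 317 CPM in members, against 1513, 1629 and 2206 CPM in the other kept cells (difference −2.75, SE 0.13, adjusted p = 4.83e-08, limma). Cpe, a carboxypeptidase that trims peptide precursors, was lower by 1.65 (log2 difference −1.65), and Syt7, a calcium sensor of exocytosis, by 1.87 (log2 difference −1.87). Pam, the enzyme that amidates substance P and CGRP, was higher by 0.61 (SE 0.15, adjusted p = 0.0169, limma), as were Syt4, a synaptotagmin of dense core granules, by 0.66 and the granule membrane gene Ptprn by 0.73.

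The receptors for trophic factors divided the sets. Gfra3, on chromosome 18 from 34689898 to 34720387, is the co-receptor for artemin. Its lowest, median and highest mouse held 133, 180 and 272 CPM in members, against 1.34, 4.14 and 16.9 CPM in the other kept cells, with no overlap (difference 4.12, SE 0.31, adjusted p = 9.75e-07, limma). The co-receptor for neurotrophins Ngfr, at 608 CPM (SD 167) in members and 188 CPM (SD 95.3) in the other kept cells, was higher by 1.85 and Kit, the receptor for stem cell factor, by 2.97, each in 6 of 6 mice. Lower were Gfra2, the neurturin co-receptor, at 5.88 CPM (SD 7.22) in members and 383 CPM (SD 74.96) in the other kept cells, Gfra1, the co-receptor for GDNF (difference −1.73), and Ret, the signalling receptor these co-receptors share (difference −1.07). In all, 4 of 15 tested trophic receptor genes were higher, 6 were lower and 5 did not pass (66.7% called, against 11.5% of all genes).

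**Figure D2:**
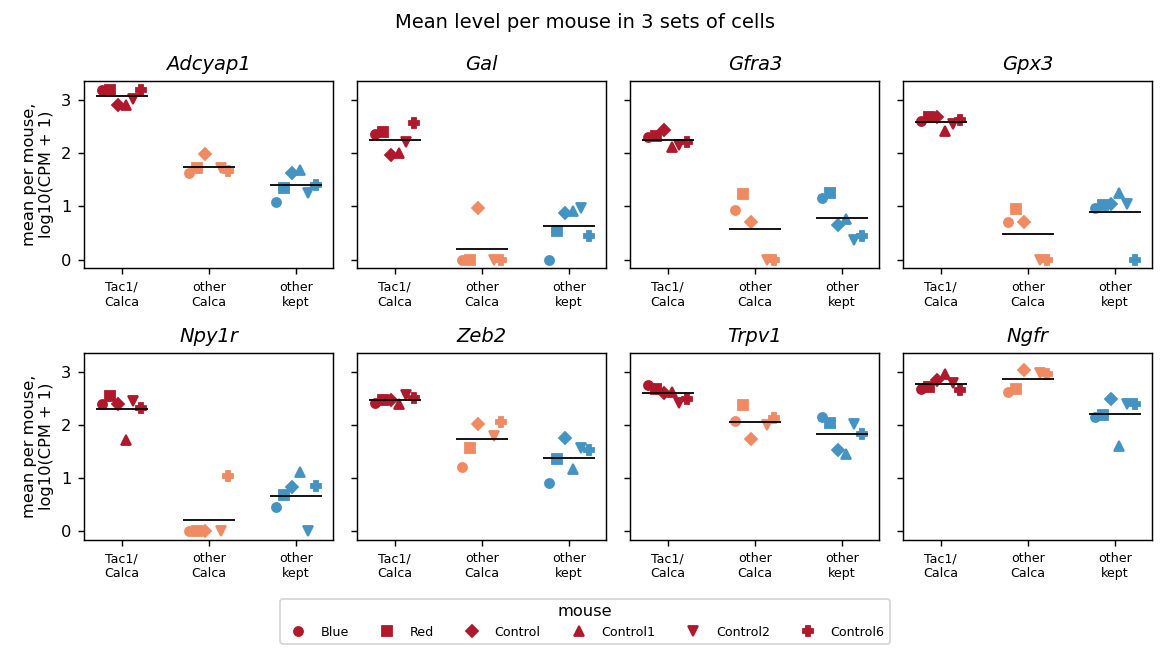
Mean level per mouse of 8 genes in Tac1/Calca cells (left), other Calca cells (middle) and all other kept cells (right), as log10(CPM + 1); 1 marker is 1 mouse and the black line is the mean of the markers. Adcyap1, Gal, Gfra3 and Gpx3 of the members lie above all other markers, whereas Ngfr overlaps between members and other Calca cells.

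Of the channels that detect stimuli, Trpv1 and Asic3 were higher, and Piezo2 and P2rx3 were lower. Trpv1, on chromosome 11 from 73234292 to 73261242, held 264, 407 and 564 CPM in the lowest, median and highest mouse of the members, against 27.9, 85.9 and 137 CPM in the other kept cells, with no overlap (difference 2.42, SE 0.27, adjusted p = 3.7e-05, limma). Asic3, an acid-sensing channel, was higher by 2.02 (SE 0.48, adjusted p = 0.0126, limma) in 6 of 6 mice. Piezo2, the mechanically gated channel, was lower in 6 of 6 mice, at 214 CPM (SD 61.8) in members and 706 CPM (SD 110) in the other kept cells (difference −1.74, SE 0.13). P2rx3, an ATP-gated channel whose exons overlap those of Ssrp1, was lower by 3.54 (log2 difference −3.54). Trpa1, the channel for irritants, averaged 65.3 CPM (SD 29.8) in members and 79.1 CPM (SD 26.3) in the other kept cells, with 3 mice on either side (difference −0.38, SE 0.33, adjusted p = 0.551, limma). Of 16 tested genes of the TRP, Piezo, ASIC and P2X families, 2 were higher, 5 were lower and 9 did not pass. The share called was 43.75%, against 11.5% of all genes.

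The sodium channels of nociceptors were lower in members, although all were present. Scn11a, which encodes Nav1.9, held 188, 383 and 461 CPM in the lowest, median and highest mouse of the members, against 779, 918 and 1057 CPM in the other kept cells (difference −1.53, SE 0.19, adjusted p = 0.000106, limma). Scn10a, the gene that drove the label, averaged 472 CPM (SD 120) in members and 829 CPM (SD 264) in the other kept cells, a difference of −0.80 (SE 0.16, adjusted p = 0.00511, limma). Scn9a, which encodes Nav1.7, averaged 580 CPM (SD 83.5) and 965 CPM (SD 307), a difference of −0.69 (SE 0.14, adjusted p = 0.00349, limma). The calls of Scn10a and Scn9a are the less secure ones: Scn10a gave an adjusted p by limma of 0.053 without cells rich in glial RNA, 0.0694 with no filter on low genes, 0.0963 with a stricter gate (Calca at least 4000 and Tac1 at least 2000 CPM) and 0.186 with means of log values. Scn9a gave 0.0626 with means of log values and 0.272 with thinned cells. Fgf13, an intracellular partner of these channels, was higher by 0.41 (SE 0.10, adjusted p = 0.0169, limma). Of 13 sodium channel genes tested, 1 was higher, 6 were lower and 6 did not pass (53.8% called, against 11.5% of all genes).

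Potassium and calcium channel genes changed in both directions. Among 41 tested potassium and HCN channel genes 6 were higher and 10 were lower (39.02% called, against 11.5% of all genes). The lower ones included the A-type channel Kcnd1 (difference −1.90) and the subunits that A-type channels bind, Kcnip4 (−3.39) and Kcnip2 (−4.51), while Kcnip1 of the same family was higher by 1.74. Kcnip4 averaged 60.01 CPM (SD 29.5) in members and 626 CPM (SD 140) in the other kept cells. Of 12 calcium channel genes, 3 were higher and 3 were lower (50% called, against 11.5% of all genes). Cacna2d1, the subunit that gabapentin binds, was higher at 609 CPM (SD 161) in members and 322 CPM (SD 41.5) in the other kept cells (difference 0.88, SE 0.17, adjusted p = 0.00332, limma), and Cacna1e, the R-type channel, by 2.20 from low levels. The call of Cacna2d1 was lost with no filter, with the stricter gate and in runs 2 to 4 (adjusted p = 0.0513, 0.0984 and 0.0912, limma). That of Cacna1e was lost with the stricter gate and with thinned cells (adjusted p = 0.107 and 0.333, limma), the second at a difference of 1.30.

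**Figure D3:**
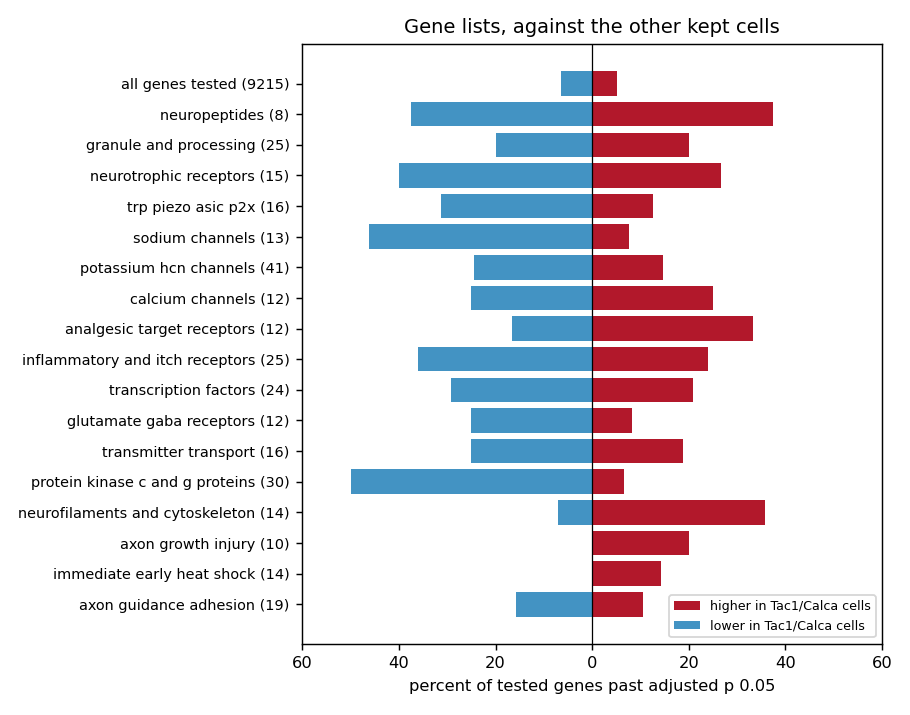
Share of the tested genes of 17 lists (number tested in brackets) that were higher (right) or lower (left) in Tac1/Calca cells than in the other kept cells at an adjusted p under 0.05, with all 9215 tested genes in the top bar. Protein kinase C and G protein genes lie mostly on the lower side, with 15 lower and 2 higher of 30.

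Receptors for inflammatory and inhibitory signals were among the largest differences. Npy1r encodes the Y1 receptor, which couples to inhibitory G proteins. It held 243, 344, 243, 50.3, 279 and 205 CPM in members of Blue, Red, Control, Control1, Control2 and Control6, against 1.83, 3.87, 5.70, 12.1, 0 and 6.02 CPM in the other kept cells. Control1 was low among the members and still above all other values (difference 4.47, SE 0.45, adjusted p = 1.56e-05, limma). Galr1, a receptor for galanin, was higher by 2.09 (SE 0.35, adjusted p = 0.00106, limma) and the adrenergic receptor gene Adra2c by 1.78. Npy2r was lower by 1.71 (log2 difference −1.71) with means of cells, and this sign turned with means of log values, as given in the closing section. Oprm1, the mu opioid receptor gene, was below the level needed for the test. Of 12 tested receptors that analgesics or inhibitory transmitters act on, 4 were higher, 2 were lower and 6 did not pass. The share called was 50%, against 11.5% of all genes.

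Prostaglandin and lipid receptor genes stood on both sides of the list of inflammatory and itch receptors. Ptgir, the prostacyclin receptor, averaged 215 CPM (SD 27.03) in members and 40.3 CPM (SD 20.7) in the other kept cells (difference 2.62, SE 0.39, adjusted p = 0.000473, limma). S1pr3, a receptor for sphingosine-1-phosphate, held 240, 363 and 396 CPM in the lowest, median and highest mouse of the members, against 24.3, 50.3 and 119.2 CPM, with no overlap (difference 2.54). The prostaglandin E receptor genes Ptger1 (2.01) and Ptger4 (1.68) were higher in 6 of 6 mice. Lower were Ptgdr, a prostaglandin D receptor (difference −2.27), Lpar3, a receptor for lysophosphatidic acid (−3.69), and Cysltr2, a leukotriene receptor that was listed at 0 in the members (−2.80). On the lower side also stood genes of itch and non-peptidergic neurons such as Mrgprd (0.830 CPM in members and 293 CPM in the other kept cells) and Il31ra, the receptor for interleukin 31 (difference −4.40). Jak1, whose exons overlap those of Raver2 on the opposite strand, was lower too (−1.77, but −0.48 with an adjusted p of 0.448 by limma with means of log values). Of 25 tested, 6 were higher, 9 were lower and 10 did not pass (60% called, against 11.5% of all genes). Th, the marker of low-threshold touch neurons, was lower at 9.16 CPM (SD 11.01) in members and 98.4 CPM (SD 58.5) in the other kept cells (difference −2.96, SE 0.57, adjusted p = 0.00316, limma). With means of log values its difference was −0.67 (adjusted p = 0.0922, limma), and with no filter on low genes the adjusted p was 0.0644 (limma).

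Regulators of gene expression and intracellular signals differed as well. Zeb2, a zinc finger repressor, held 248, 293 and 363 CPM in the lowest, median and highest mouse of the members, against 7.23, 27.5 and 55.04 CPM in the other kept cells, with no overlap (difference 3.37, SE 0.25, adjusted p = 9.75e-07, limma). Bcl11b, another zinc finger factor, was higher by 2.34, while Casz1 (difference −4.13), Klf5 (−3.75) and Onecut2 (−3.41) were lower. Of 24 transcription factor genes, 5 were higher, 7 were lower and 12 did not pass (50% called, against 11.5% of all genes). In the list of protein kinase C, adenylate cyclase, G protein and RGS genes, 2 of 30 were higher and 15 were lower (56.7% called, against 11.5% of all genes), with a median difference of −0.65. Rgs4, which speeds the switching off of G proteins, held 122.6, 204 and 397 CPM in the lowest, median and highest mouse of the members, against 1505, 2189 and 2423 CPM (difference −3.17, SE 0.21, adjusted p = 4.51e-07, limma). Prkca (−2.56, with exons that overlap those of Apoh) and Prkcq (−4.56) were lower too, and Prkcb was higher by 1.96 (SE 0.33, adjusted p = 0.0013, limma). Prkcb was not particular to members: the median mouse of the other Calca cells held 279 CPM, against 174 CPM in members of the same mice.

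Genes outside the lists were among the largest differences. Gpx3, a secreted selenoprotein that reduces peroxides, held 407, 480, 479, 260, 351 and 425 CPM in members of Blue, Red, Control, Control1, Control2 and Control6, against 8.47, 9.69, 10.1, 16.97, 10.1 and 0 CPM in the other kept cells, with no overlap (difference 4.93, SE 0.30, adjusted p = 1.84e-07, limma). S100a11, a calcium-binding protein gene, was higher by 3.67, the adhesion gene Flrt1 by 3.47 and the membrane protein gene Tmem176a, whose exons overlap those of Tmem176b, by 3.17. Among the largest lower differences were those of Grik1, a kainate receptor subunit (−6.50), Mrgprd (−5.72), Ctxn3 (−5.69), Tmem45b (−5.46), Gfra2 (−5.41), Synpr, a synaptic vesicle protein (−5.20), Ppp1r1a, an inhibitor of protein phosphatase 1 (−5.09), and Acpp, the prostatic acid phosphatase used as a marker of non-peptidergic neurons (−5.08). Grik1 was listed at 0 in the members of 4 mice and held 14.6 CPM at most, against 560 to 944 CPM in the other kept cells.

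Some cytoskeletal genes were higher in members. Stmn1, a stathmin that destabilises microtubules, held 1244, 1346 and 1469 CPM in the lowest, median and highest mouse of the members, against 431, 638 and 764 CPM in the other kept cells, with no overlap (difference 1.12, SE 0.11, adjusted p = 1.47e-05, limma). Gap43, a protein of growth cones, was higher by 1.79 and Jun, a factor that nerve injury and cell handling both induce, by 1.69, with Jun higher in 5 of 6 mice and not past with no filter on low genes (adjusted p = 0.0603, limma). Gap43 was not particular to members: the median mouse of the other Calca cells held 974 CPM, against 653 CPM in members of the same mice. Of 14 cytoskeletal genes, 5 were higher, 1 was lower and 8 did not pass (42.9% called, against 11.5% of all genes). The lower one was Nefl, whose exons overlap those of Nefm on the opposite strand (−0.75, but −0.12 with an adjusted p of 0.828 by limma with means of log values). Nefh did not pass (difference −0.14, SE 0.22, adjusted p = 0.765, limma). In the list of immediate early and heat shock genes, which respond to dissociation, 2 of 14 were higher and 12 did not pass. This share of 14.3% is near the 11.5% of all genes. The higher ones were Btg2 (1.97) and Junb (1.00), whose exons overlap those of Prdx2 on the opposite strand. With thinned cells both calls were lost, with Junb at 0.15 (adjusted p = 0.926, limma). In runs 2 to 4 Btg2 and Junb did not pass either (adjusted p = 0.179 and 0.292, limma). The call of Junb was also lost without Blue, without Red, without the mouse block and with no filter on low genes (adjusted p = 0.071, 0.0635, 0.0597 and 0.0513, limma). Of 12 glutamate and GABA receptor genes 1 was higher and 3 were lower (33.3% called, against 11.5% of all genes). The higher one was Grin3a, at 150 CPM (SD 47.4) in members and 26.2 CPM (SD 9.34) in the other kept cells. Of 16 tested genes of transmitter transport and release, 3 were higher and 4 were lower (43.75% called, against 11.5% of all genes). Among the higher was the vesicle gene Sv2a (1.58, not past with thinned cells, at 0.96 and an adjusted p of 0.52 by limma). The complexin gene Cplx1 (−1.41) was among the lower. The lists of axon guidance and of axon growth and injury gave 2 higher and 3 lower of 19 and 2 higher and 0 lower of 10. Their shares called were 26.3% and 20%, against 11.5% of all genes.

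The second comparison asked what set members apart from other neurons with CGRP. The 53 other Calca cells were a mixed set: 36 of them (67.9%) carried Mrgpra3 at 100 CPM or more. Nefh reached that level in 21 of them (39.6%), and it did so in 41 members (47.7%). The other Calca cells had come from 5 mice, since Control1 had none. Adcyap1, Gal, Gfra3, Cartpt, Gpx3 and Npy1r were higher in members here too, Ngfr did not pass, and Runx1, Gria1 and Sox11, which had not passed against the other kept cells, were higher. In all, 504 of 9206 genes (5.47%) differed, 213 higher (2.31%) and 291 lower (3.16%) in members, by limma over 5 mice. Both comparisons share the members and the other Calca cells, so that they are not independent of each other. The count was 225 without Blue, 254 without Red and 272 without Control2, and 21 with cells thinned to 5000 counts. With thinned cells 45 of 62 named genes lost their call, Gfra3 and Cartpt among them (adjusted p = 0.0552 and 0.141, limma).

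Gal and Adcyap1 set the members apart from other Calca cells too, while Calcb did not pass. Gal held 233, 255, 90.98, 159 and 374 CPM in members of Blue, Red, Control, Control2 and Control6, against 8.19 CPM in Control and a listing of 0 in the other 4 mice among the other Calca cells (difference 5.08, SE 0.47, adjusted p = 0.000183, limma). Adcyap1 held 41.5, 52.8, 95.1, 50.9 and 44.7 CPM in the other Calca cells of these mice, all below the 819 CPM that were the lowest value of the members (difference 4.42, SE 0.26, adjusted p = 1.46e-05, limma). Counts of Adcyap1 were found in 50.9% of the other Calca cells. Nmb, the gene of neuromedin B, was the 1 peptide gene that was lower, at 273 CPM (SD 68.002) in members and 459 CPM (SD 80.3) in other Calca cells (difference −0.76, SE 0.15, adjusted p = 0.0148, limma). Calcb averaged 404 CPM (SD 131) in members and 359 CPM (SD 89.97) in other Calca cells (adjusted p = 0.689, limma).

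Gfra3 and Gfra1 separated these sets. Ngfr averaged 549.6 CPM (SD 99.2) in members and 777 CPM (SD 310) in other Calca cells and did not pass (difference −0.41, SE 0.17, adjusted p = 0.246, limma), with 2 mice higher and 3 lower. Gfra3 differed by 4.44 (SE 0.34, adjusted p = 6.29e-05, limma). Gfra1 was lower in members, at 20.9 CPM (SD 7.17) in members and 260 CPM (SD 155) in other Calca cells (difference −3.13, SE 0.29, adjusted p = 0.000183, limma). Kit overlapped between the sets, since other Calca cells held 136 and 65.1 CPM in Blue and Red but 370, 204 and 430 CPM in Control, Control2 and Control6, and it did not pass (difference 0.87, SE 0.32, adjusted p = 0.167, limma).

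Trpv1 was higher in members than in other Calca cells too. It held 564, 465, 403, 264 and 310 CPM in members of Blue, Red, Control, Control2 and Control6, against 118.8, 242, 53.4, 99.4 and 133 CPM in other Calca cells (difference 1.70, SE 0.25, adjusted p = 0.00337, limma). No mouse of the other Calca cells reached the lowest mouse of the members. Scn10a was lower by 0.65 (log2 difference −0.65, SE 0.12, adjusted p = 0.00956, limma) and Scn11a by 1.19 (log2 difference −1.19). The call of Scn10a was lost without Blue, without Red, in runs 2 to 4 and with thinned cells (adjusted p = 0.0547, 0.0532, 0.225 and 0.171, limma). That of Scn11a was lost with no filter on low genes, with thinned cells and in runs 2 to 4 (adjusted p = 0.0513, 0.0615 and 0.0827, limma). Trpv1 did not pass with thinned cells (difference 1.86, adjusted p = 0.149, limma). Of 13 sodium channel genes, 1 was higher, 5 were lower and 7 did not pass (46.2% called, against 5.47% of all genes). Kcnk3, the acid-sensitive leak channel TASK-1, was higher by 3.56, and Kcnk18, the leak channel TRESK, was lower at 0.960 CPM (SD 2.15) in members and 30.5 CPM (SD 20.53) in other Calca cells, a call that was lost without Blue or without Red.

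**Figure D4:**
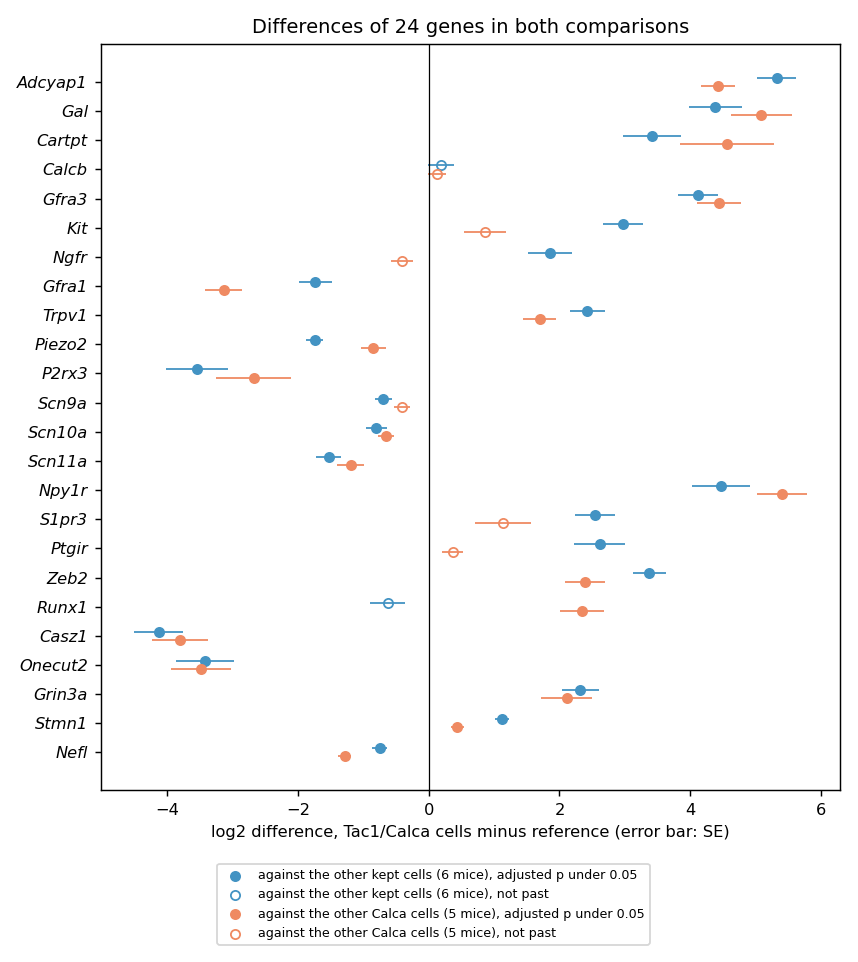
Log2 differences of 24 genes, Tac1/Calca cells minus reference, with SE as error bars; blue points are against the other kept cells (6 mice) and orange points against the other Calca cells (5 mice), and open points did not pass an adjusted p of 0.05. Adcyap1, Gal, Cartpt, Gfra3 and Npy1r lie far to the right in both, while Ngfr has an open point against the other Calca cells and Runx1 an open point against the other kept cells; the difference between the comparisons was not tested.

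Transcription factors gave 2 higher and 4 lower of 23 tested (26.1% called, against 5.47% of all genes). Runx1, which shapes non-peptidergic and Mrgpr-bearing neurons in development, averaged 341 CPM (SD 164) in members and 60.04 CPM (SD 25.8) in other Calca cells (difference 2.35, SE 0.34, adjusted p = 0.00266, limma), and Zeb2 was higher by 2.40. Lower were Casz1 (−3.81), Onecut2 (−3.49), Etv1 (−3.78) and Klf5 (−2.04). Etv1 held 84.3, 63.2, 94.2, 0 and 0 CPM in members of Blue, Red, Control, Control2 and Control6, against 559, 802, 102.4, 399 and 363 CPM in other Calca cells, so that the sets came close in Control alone. Mef2c, an activity-dependent factor outside the list, was higher by 3.43 (SE 0.37, adjusted p = 0.000569, limma).

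Release genes kept their mixed pattern, and most called signalling genes were again lower. Syt4 was higher, at 1554 CPM in members and 548 CPM in other Calca cells (difference 1.48, SE 0.16, adjusted p = 0.000569, limma), and Pam was higher by 1.18. Scg3 (−1.73), Cpe (−1.05) and Syt7 (−1.21) were lower, and 18 of 25 genes of this list did not pass (28% called, against 5.47% of all genes). Rgs4 held 178, 221, 397, 187 and 122.6 CPM in members, against 3270, 3095, 1125, 2177 and 1506 CPM in other Calca cells, with no overlap (difference −3.30, SE 0.30, adjusted p = 0.000183, limma). In the list of kinase and G protein genes 1 of 29 was higher, Adcy5 (1.62), and 9 were lower (34.5% called, against 5.47% of all genes). The neurofilament genes Nefl (−1.28) and Nefm (−0.67) were lower, and Nefh passed narrowly (−1.15, SE 0.29, adjusted p = 0.0452, limma) but in no fit that left out Blue, Control, Control2 or Control6, with values of −1.22, −1.02, −0.87 and −1.12.

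Of 13 tested receptors that analgesics or inhibitory transmitters act on, 2 (Npy1r and Sstr2) were higher than in other Calca cells and 0 were lower. Of 24 inflammatory and itch receptors, 2 were higher and 6 were lower. The shares called were 15.4% and 33.3%, against 5.47% of all genes. Npy1r and Sstr2 met the filter of 10 CPM only through the members, with means of 2.02 and 0 CPM in other Calca cells. Both could thus only come out higher, and the first share says nothing of direction. Npy1r was listed at 0 in 4 of 5 mice among other Calca cells, with 10.1 CPM in Control6, against 205 CPM or more in the members of these mice (difference 5.40, SE 0.38, adjusted p = 3.12e-05, limma). Sstr2, a somatostatin receptor, had counts in 27 of 86 members (31.4%) and in 0 of 53 other Calca cells, which allows up to 5.66% of such cells to hold a count, from counting error alone, and sets no limit on cells that express the gene below this depth. It held 24.4, 31.97, 19.8, 0 and 58.1 CPM in members of Blue, Red, Control, Control2 and Control6, and its call (adjusted p = 0.0357, limma) was lost without Blue, Red or Control. The call was also lost with log2(CPM + 1), with no filter on low genes, with thinned cells and in runs 2 to 4 (adjusted p = 0.0906, 0.0904, 0.517 and 0.448, limma). With DESeq2 on recovered counts its adjusted p was 0.492. Ptger1 was higher by 1.72, while Ptgir (0.37, adjusted p = 0.25, limma) and S1pr3 (1.13, adjusted p = 0.175, limma) did not pass. Mrgpra3 was nearly at 0 in members (0.0727 CPM, against 227 CPM), but 26.8% of its low values were fractions of a count, and its values are uncertain. Oprm1 averaged 14.3 CPM (SD 14.4) in members and 9.54 CPM (SD 8.68) in other Calca cells (adjusted p = 0.885, limma). Of the glutamate receptor genes Gria1 (2.96) and Grin3a (2.11) were higher, though Grin3a did not pass without Control2 (1.77, adjusted p = 0.0525, limma).

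Largest on the lower side were Gda, a guanine deaminase of the cytosol (−5.38), Mrgpra3 (−5.36), Acpp (−4.89), Ctxn3 (−4.77), Tmem45b (−4.38), Tns1, a protein of focal adhesions (−4.32), and Synpr (−4.04). Moxd1 and Cav1, the gene of caveolin-1, were listed at 0 in all members of these mice, against 104.5 CPM (SD 75.5) and 96.8 CPM (SD 56.6) in other Calca cells. Ptprt, a receptor-type tyrosine phosphatase gene, was higher, with 430, 524, 98.9, 574 and 719 CPM in members, against 40.7, 40.2, 5.84, 21.9 and 20.2 CPM in other Calca cells (difference 3.87, SE 0.27, adjusted p = 3.12e-05, limma). Control was the low mouse of the members for Ptprt and still above the mean of the other Calca cells in every mouse. Nrp1, a co-receptor for semaphorins and VEGF, was lower, with 129, 92.7, 303, 75.7 and 56.4 CPM in members, against 429, 351, 382, 455 and 472 CPM in other Calca cells (difference −1.87, SE 0.30, adjusted p = 0.00545, limma). Jun was higher by 2.44 (SE 0.31, adjusted p = 0.00134, limma) and Sox11, a factor of growth and injury, by 2.00, a call that was lost without Blue, Red, Control or Control2.

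The members were not alike in all of these genes. At 100 CPM or more, Trpv1 was carried by 84 of 86 members, Adcyap1 by 83, Cd44 by 83, Kit by 76, Ngfr by 73 and Npy1r by 59. Gal and Gfra3 each reached that level in 56 members (65.1%), Cartpt in 39, Asic3 in 29, Etv1 in 22 and Trpa1 in 15. Smr2, a gene used as a marker of a subset of CGRP neurons, reached it in 6 members, of which 4 were in Red, 1 in Blue and 1 in Control2, and in 0 of the 285 other kept cells. Across members Calca varied from 2455 to 21048 CPM, with quartiles at 7871 and 14899 CPM, and Tac1 from 1233 to 9054 CPM, with quartiles at 2737 and 5376 CPM.

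Genes most like Tac1 and Adcyap1 were sought over the 86 members among 4087 genes whose mean was 50 CPM or more, by Spearman's rho. Cells of 1 mouse are not replicates and differ in depth, so that these values are a description without a test. Tac1 went most with Cd44, an adhesion receptor (rho 0.58), Rims2, a protein of the active zone (0.58), Rasgrp1, a Ras activator (0.57), Id2 (0.54) and Camk2a (0.52). Its rho was 0.40 with Calca and 0.11 with Adcyap1. With every cell thinned to 5000 counts, Tac1 had a rho of 0.31 with Cd44 and 0.33 with Calca, so that this order is not secure. Adcyap1 went most with Ptprt (0.63), Klf6 (0.61), Rit2 (0.60), Tmem158 (0.60) and Syt4 (0.59). Depth was correlated with Tac1 at 0.09 and with Adcyap1 at −0.52.

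The pattern around Adcyap1 had an opposite side. These genes were picked after their values were seen. Ptprt and Nrp1 were ranked in opposite order, with a rho of −0.82 over 86 members, −0.88 over the 33 in Blue and −0.71 over the 38 in Red. Nrp1 was listed at 0 in 45 members and reached 775 CPM in others, and Ptprt was listed at 0 in 12 and reached 1668 CPM. With Ptprt went Adcyap1 (0.63), Syt4 (0.70) and Jun (0.69). With Nrp1 went Ngfr (0.69) and Calca (0.67), and Calca went with Ngfr at 0.61. Ptprt and Ngfr were opposed in Blue (−0.62) and Red (−0.64).

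Depth ran along the same line, since the recovered counts of a cell were correlated with Ptprt at −0.59 and with Nrp1 at 0.69. Ptprt and Nrp1 still had a rho of −0.70 once the ranks of depth were taken out, and −0.57 with every cell thinned to 5000 counts. For Ptprt and Ngfr these values were −0.48 and −0.58, and for Calca and Ngfr 0.48 and 0.57. Cells with less RNA and shallower libraries cannot be told apart here. Mice also differed along it: the median of Ptprt over members was 79.1 CPM in Control, the mouse with the deepest members at a median of 52623 counts, and 902 CPM in Control6, the shallowest at 13359 counts.

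**Figure D5:**
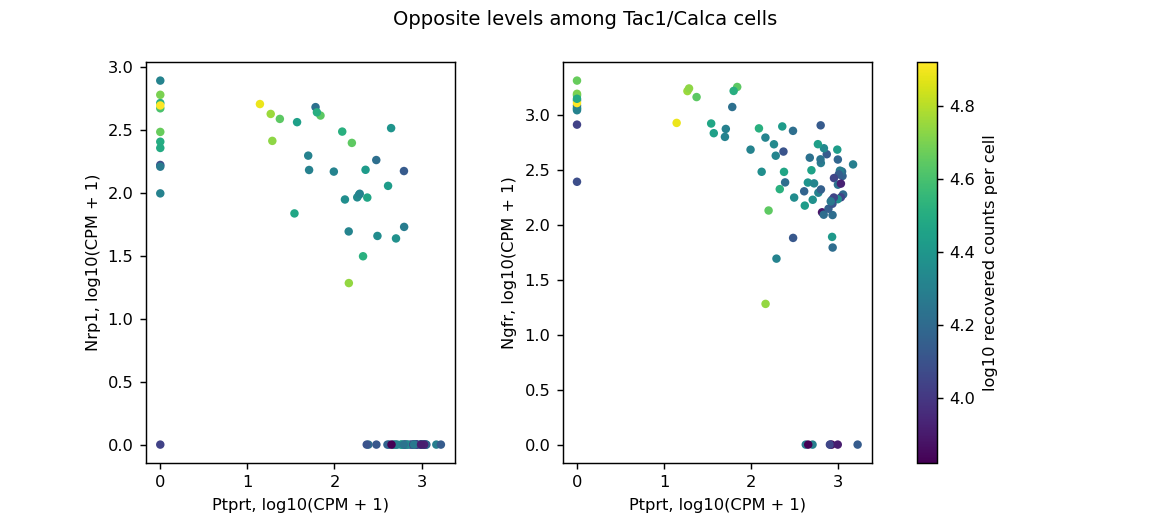
Ptprt against Nrp1 (left) and Ptprt against Ngfr (right) in 86 Tac1/Calca cells, all as log10(CPM + 1); 1 point is 1 cell and its colour is the log10 of its recovered counts. Cells with Nrp1 have little Ptprt (rho −0.82), and the deeper cells lie on the side of Nrp1 and Ngfr.

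Members with glial RNA were compared with the rest by their values alone. The 33 members with a satellite glial sum of at least 500 CPM had a median of 2135 CPM of Apoe, against 0 in the other 53. Their median Tac1 was 3134 CPM against 4070 CPM, their median Calca 9506 CPM against 11163 CPM, and their median Adcyap1 1214 CPM against 1542 CPM, at a median depth of 20459 against 19620 counts. Nefh had a median of 140 CPM in these 33 and 75.5 CPM in the other 53. With cells rich in glial RNA left out of both sets, 641 genes passed against the other kept cells in 4 mice, and 598 of them were among the 1063.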

How the data were processed

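The authors deposited 4 tables with a signal per gene and cell, a count times a factor of the cell for which no value was given. Alignment used STAR 2.7.3a and the build was mm10, per the submitters' processing notes. Division by the commonest value of a column gave recovered counts, whole within 0.1 for a median of 96.5% of low values; whole reads were claimed for 252 of 394 columns. The labels list 400 cells, and 6 were not analysed here. Rn45s and 26 rows named by dates (0.154% of the signal) were left out, and 371 cells with at least 500 genes were kept; the other 23 held at most 383 counts. The count of columns left unused was 0.

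Members, lists and rules were chosen with earlier results of these data known. Mean CPM per mouse and set, from at least 3 cells, was tested as log2(CPM + 5) with limma 3.58.1 (R 4.3.3, trended prior), with mouse as a block, where the mean of a gene was 10 CPM or more. The pairing comes from the labels, since both sets come from the same mouse. Calls needed an adjusted p (Benjamini-Hochberg, over all genes tested) under 0.05. Named genes were the 10 largest each way with at least 20 CPM and 1 direction in every mouse, up to 3 of smallest p per list and 15 genes given by name; others in the text illustrate a list or were chosen after their values were seen, as were the pairs of genes within members. edgeR 4.0.16 and DESeq2 1.42.0 ran on rounded recovered counts, columns without whole reads included, as alternatives. Positions are from GENCODE vM21 and upstream sequences from RefSeq. Use of strand in counting is not given in the sources used, so values of genes with overlapping exons are uncertain. A few genes, some of them among the named genes, are not reported here. The fit was tested on simulated data.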

Additional observations from a re-analysis of the deposited data

Results flagged for a closer look

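Over 72 quantities checked per mouse in the members, 8 had 1 mouse far from the other 5 relative to their whole range; chance alone gives about 1 such case in 20. Each mouse outside run 1 gave 3 or 4 member cells, and the part of this in the values was not tested. Mouse Control6 had 827 CPM of Cartpt, against 32.8 to 222 CPM in the other mice, and the lowest Kcnd1, at 35.4 CPM against 55.3 to 65.5 CPM. Mouse Control1 had 98.4 CPM of Acpp (others 0 to 22.7 CPM), 20.6 CPM of Cacng2 (others 0 to 5.80 CPM) and the lowest Kit, at 235 CPM (others 347 to 405 CPM). Mouse Control had 18.2 CPM of Scn1a (others 0 to 1.78 CPM) and 89.4 CPM of Scn8a (others 7.67 to 30.96 CPM). Mouse Control2 had 420 CPM of Sox11, against 45.9 to 152 CPM.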

How the results depend on the processing

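Against the other kept cells the count of 1063 genes ran from 745 to 965 when each mouse was left out in turn. It was 656 with the stricter gate (Calca at least 4000 and Tac1 at least 2000 CPM), 641 without cells rich in glial RNA, 401 with cells thinned to 5000 counts, 491 in runs 2 to 4, and 2799 in run 1 alone, which is also what at least 5 cells per mouse left. It was 1988 with edgeR and 1602 with DESeq2 on recovered counts. Against the other Calca cells the count of 504 ran from 225 to 481 with each mouse left out. It was 204 with no filter on low genes, 1498 with the stricter gate and 1534 without cells rich in glial RNA (2 mice each), 924 with edgeR, 21 with thinned cells, 149 in runs 2 to 4 and 2227 in run 1 alone or with at least 5 cells per mouse. Fewer mice enter the fits by run, gate or glial RNA, and thinning leaves fewer counts; beyond that the cause was not tested. Without the replicate block the counts were 1106 and 439. The split against the other Calca cells was 166 higher and 539 lower with means of log values, where the median of all genes was −0.35.

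Npy2r was the 1 named gene that turned, at 0.20 with means of log values (adjusted p = 0.809, limma) against −1.71; the cause was not tested. Of the settings of 66 named genes against the other kept cells, 1410 kept direction and call and 34 lost the call, in 15 genes; against the other Calca cells 1167 kept both, and calls were lost under some setting in 45 of 62 genes. The mean share of members stayed between 14.7% and 21.01%. Depth limits what can be said of genes near 1 count per cell, and 4 mice gave 4 members or fewer.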
